A study of Homo sapiens with 9 samples.

Results

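The nuclear genes for subunits of the oxidative phosphorylation complexes were taken from a table of 18064 genes by symbol. A gene belonged to the set if its Entrez identifier mapped to a protein-coding symbol of a complex I subunit (NDUFA, NDUFB, NDUFC, NDUFS or NDUFV followed by a number), one of SDHA to SDHD, a symbol starting with UQCR, CYC1, a cytochrome c oxidase symbol from COX5A to COX8C, or a symbol starting with ATP5F or ATP5M. In the RefSeq gene table for GRCh38.p14, 81 symbols follow this rule, and 79 of them had a row: 37 of complex I, 4 of complex II, 10 of complex III, 13 of complex IV and 15 of complex V. COX6A2 and COX7B2 had no row and were not analysed here. The set includes the readthrough genes NDUFC2-KCTD14 and ATP5MF-PTCD1, whose reads cannot be separated with certainty from those of NDUFC2 and ATP5MF. The values are FPKM, fragment numbers divided by transcript length and library total, so levels may be compared between genes. A gene was tested if it reached 1 FPKM in 3 or more of the libraries, which held for 76 subunits. Their mean levels ran from 1.46 to 341 FPKM with a median of 60.4 FPKM, against a median of 11.6 FPKM over all 12317 genes tested. The muscle isoform COX7A1, the testis isoform COX8C and ATP5MGL did not pass, and their highest values in any library were 0.150, 0.120 and 0.460 FPKM.

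The 9 libraries were made from human cells in 3 groups of 3. The si1-BCLIN25 and si2-BCLIN25 groups each had a different siRNA against the RNA BCLIN25, and si-NC had a control siRNA. The titles give the cells as MDA-MB-231/PTX, a line made resistant to paclitaxel from the triple-negative breast cancer cells MDA-MB-231, and the medium was RPMI with serum. Whether paclitaxel was in the medium and how long after transfection RNA was taken are not stated. Nor do the labels say that replicates were grown separately: p-values then reflect the spread of these libraries alone, which may be technical. In conflict with the titles, further label fields give PC9/GR, lung adenocarcinoma cells resistant to gefitinib, and name HUMT as the target, so neither the line nor the targeted RNA is settled. BCLIN25 and HUMT were not analysed here, and the knockdown was not checked.

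Markers did not settle the line either. Of 6 genes listed as high in MDA-MB-231, VIM, MSN, CD44 and AXL were expressed and fell in both siRNA groups, MSN to 3.98 FPKM in si1-BCLIN25 and 4.15 FPKM in si2-BCLIN25, against 72.9 FPKM in si-NC. The other 2, ZEB1 and SPARC, were at most 0.14 and 0.06 FPKM in all 9 libraries, and the epithelial genes CDH1 and EPCAM were at 31.4 to 46.5 and 92.7 to 143 FPKM. Of the 3 genes listed as low in MDA-MB-231, CDH1, EPCAM and ESRP1, 2 rose and 1 fell in each siRNA group. The 6 genes summed to 128 to 131 FPKM in si1-BCLIN25 and 145 to 148 FPKM in si2-BCLIN25, against 457 to 461 FPKM in si-NC. For PC9, the lung genes NKX2-1 and NAPSA were at most 0.78 and 0.34 FPKM, while a further listed lung gene, SFTPB, passed the filter. Of the 6 listed genes 4 were tested, and 2 rose and 2 fell in each siRNA group. All 6 summed to 175 to 184 FPKM in si1-BCLIN25 and 187 to 191 FPKM in si2-BCLIN25, against 226 to 231 FPKM in si-NC. Of 5 fibroblast markers, COL1A2, COL3A1 and DCN were at or near 0. The other 2, COL1A1 and LUM, rose in both siRNA groups, with median log2 fold changes of 1.56 and 1.39. All 5 summed to 14.1 to 14.8 FPKM in si1-BCLIN25 and 12.5 to 13.2 FPKM in si2-BCLIN25, against 3.57 to 4.65 FPKM in si-NC. The blood cell markers found in the table, 3 of 4, summed to 42.0 to 43.1 FPKM in si1-BCLIN25 and 37.8 to 38.1 FPKM in si2-BCLIN25, against 54.5 to 59.1 FPKM in si-NC, nearly all from LAPTM5. Markers of endothelium, of heart and skeletal muscle and of testis germ cells summed to at most 0.30, 0.42 and 0.34 FPKM in any library. The part of these marker differences in the results that follow was not tested. In such bulk libraries, fewer cells of a type and less RNA per cell cannot be told apart. The si-NC column headers have a prefix absent from those of the siRNA libraries, and a batch behind it, if any, cannot be told apart from the groups.

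Oxidative phosphorylation moves electrons from NADH (complex I) and succinate (complex II) through ubiquinone to complex III, on through cytochrome c to complex IV, and there to oxygen. Complexes I, III and IV pump protons across the inner mitochondrial membrane, and complex V, the ATP synthase, lets them back through a rotating ring of c subunits to make ATP. Complex II is encoded in the nucleus alone, while the other complexes also hold subunits encoded in mitochondrial DNA, which were not analysed here.

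Most subunits that changed were higher in the siRNA libraries, by small amounts. Of the 76 tested, 45 rose with si1-BCLIN25 and 5 fell, while 35 rose with si2-BCLIN25 and 4 fell (limma over all 12317 genes, adjusted p under 0.05). The si-NC libraries are shared by these comparisons. With si1-BCLIN25 the share that rose was 59.2% and the share that fell 6.58%, and with si2-BCLIN25 these shares were 46.1% and 5.26%. Among all genes the background was large: 63.1% were called with si1-BCLIN25 (38.4% higher, 24.6% lower) and 63% with si2-BCLIN25 (38.6% higher, 24.4% lower). The share of subunits that rose was thus above the background in si1-BCLIN25 and nearer to it in si2-BCLIN25, and the share that fell was below it in both. The median log2 fold change of the subunits was 0.17 in si1-BCLIN25 and 0.13 in si2-BCLIN25, on the scale of log2(FPKM + 1), against 0.06 over all genes in both. The libraries of the 2 groups did not overlap for 43 higher and 4 lower subunits in si1-BCLIN25, and for 37 higher and 6 lower ones in si2-BCLIN25. Over all genes this held for 39% and 25.7% in si1-BCLIN25 and for 40.5% and 26.6% in si2-BCLIN25. An unadjusted p under 0.05 was reached by 51 and 42 of the 76 subunits, and by 66.4% of all genes in each comparison.

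Large changes were few. At a fold of at least 1.3, 9 subunits rose with si1-BCLIN25 (11.8%, against 17.6% of all genes) and 7 rose with si2-BCLIN25 (9.21%, against 17.7%). At a fold of at least 1.5, 2 subunits rose in each siRNA group (2.63%, against 8.70% and 8.92% of all genes), and 1 of those in si2-BCLIN25 is UQCRHL, whose call is uncertain. Falls of at least 1.3-fold numbered 1 with si1-BCLIN25 (1.32%, against 9.96% of all genes) and 2 with si2-BCLIN25 (2.63%, against 9.58%). At 1.5-fold 0 subunits fell in either siRNA group, against 5.42% and 4.97% of all genes. Across both comparisons 31 subunits rose in each siRNA group, and 4 fell in each: SDHA of complex II, UQCRFS1 of complex III, COX7A2L of complex IV and ATP5F1E of complex V. A further 14 were called higher in si1-BCLIN25 alone, 4 were called higher in si2-BCLIN25 alone, NDUFC2 was called lower in si1-BCLIN25 alone, and 22 were called in neither. The same joint counts were not made over all genes, so no background stands beside these.

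**Figure D1:**
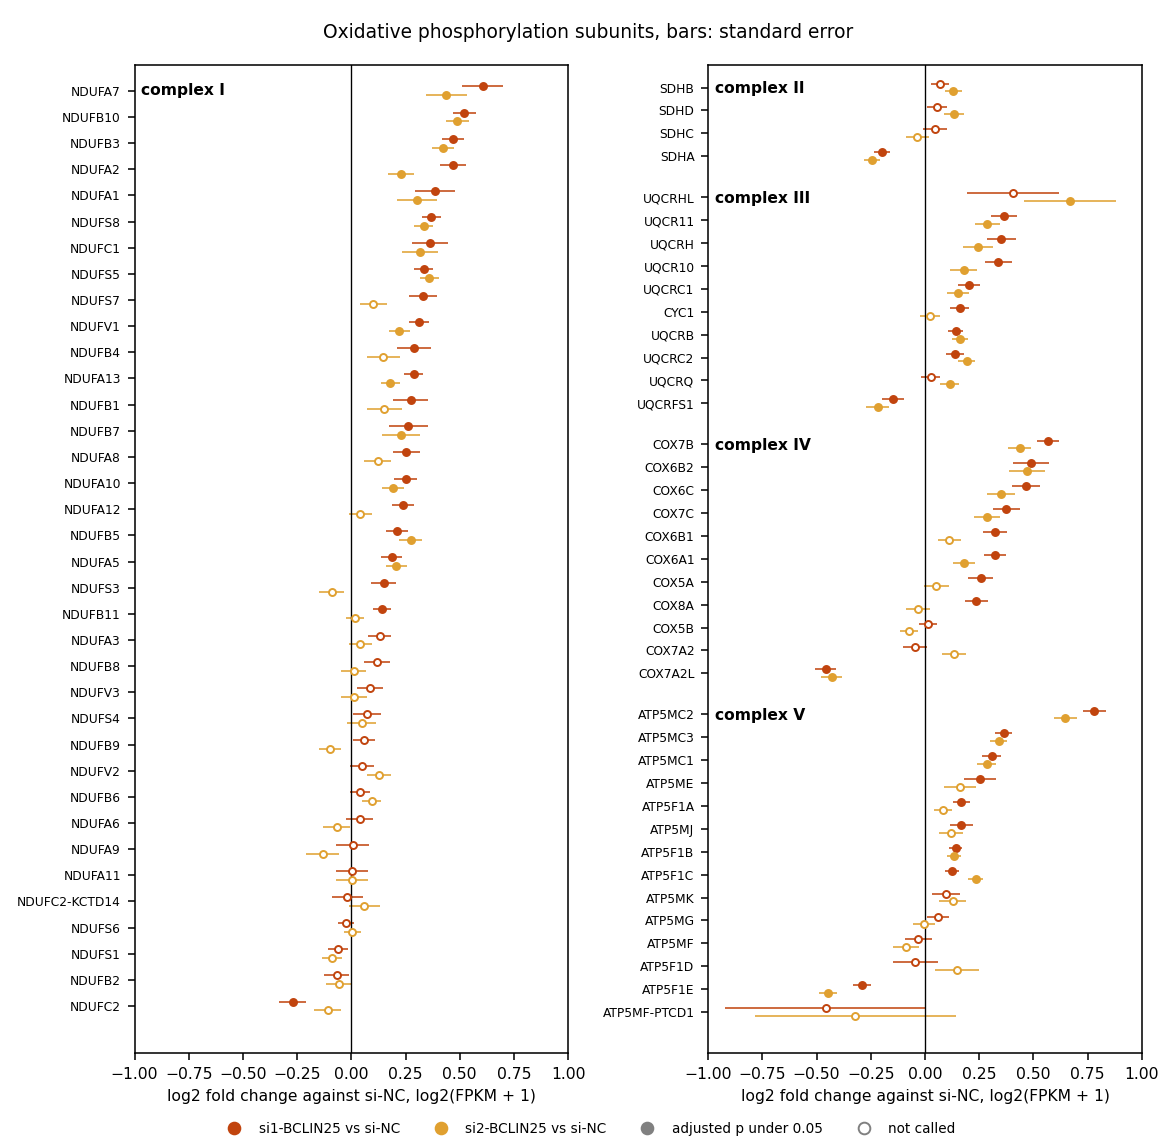
Log2 fold change of the tested subunits against si-NC (1 is not drawn), on the log2(FPKM + 1) scale, with 1 standard error; si1-BCLIN25 is drawn above si2-BCLIN25 for each gene, and filled points have an adjusted p under 0.05. Most filled points lie right of 0, between 0.11 and 0.78, and 4 genes have filled points left of 0 in both siRNA groups.

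The si-NC libraries were not alike for these genes. The median offset of the subunits from the si-NC group mean was -0.08 in si-NC replicate 3, 0.06 in replicate 1 and 0.04 in replicate 2 (log2), while over all genes it was -0.0079, 0.0011 and 0.0030 in replicates 1, 2 and 3. Without si-NC replicate 3, the counts were 44 higher and 4 lower with si1-BCLIN25, and 31 higher and 8 lower with si2-BCLIN25. FPKM of short transcripts also depend on how fragment length was handled, and 66 of the 76 subunits have transcripts shorter than the median tested gene (medians of 714 and 1815 bases). With a smooth trend on length and GC content removed, they were 43 and 6 with si1-BCLIN25, and 34 and 8 with si2-BCLIN25. The share of subunits that rose in that fit was 56.6% with si1-BCLIN25, against 40.1% of all genes. With si2-BCLIN25 it was 44.7% against 40.2%, near the background. Of all genes called, 60.9% were higher with si1-BCLIN25 and 61.3% with si2-BCLIN25, which became 50.1% and 50.7% under quantile normalization, and 52.1% and 52.0% with each library centred on its median. The subunits' calls were 90.0% and 89.7% higher as fitted, 90.2% and 90.9% under quantile normalization, and 88.6% and 77.8% with median centring, where 28 rose and 8 fell in si2-BCLIN25. With that centring the share of subunits that rose was 51.3% and 36.8%, against 32.5% of all genes in both comparisons, so in si2-BCLIN25 it was near the background.

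Complex I takes electrons from NADH through a peripheral arm built on core subunits, and pumps protons in a membrane arm dressed with accessory subunits. Of 37 subunits, 22 rose with si1-BCLIN25 and 1 fell. With si2-BCLIN25 15 rose and 0 fell (limma, with 0 lower at an unadjusted p under 0.05 too). The share that rose was 59.5% with si1-BCLIN25, and with si2-BCLIN25 it was 40.5%, about that of all genes. The median log2 fold changes were 0.21 and 0.12. Of the 30 accessory subunits 17 and 12 rose. Among the 15 that rose in both groups were the core subunits NDUFS8 and NDUFV1 and the accessory subunits NDUFA1, NDUFA5, NDUFA7, NDUFA13, NDUFB3, NDUFB5, NDUFB10, NDUFC1 and NDUFS5. Called in si1-BCLIN25 alone were NDUFA8, NDUFA12, NDUFB1, NDUFB4, NDUFB11, NDUFS3 and NDUFS7.

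The complex I subunit with the smallest p was NDUFB10, an accessory subunit of the membrane arm. It measured 53.0, 58.2 and 55.2 FPKM in si1-BCLIN25 and 57.5, 53.5 and 51.7 FPKM in si2-BCLIN25, against 38.5, 40.4 and 36.2 FPKM in si-NC. All 6 siRNA libraries were above all si-NC libraries, and the log2 fold changes were 0.52 and 0.49 (SE 0.052, limma adjusted p = 2.69e-06 and 4.92e-06). NDUFB3, also of the membrane arm, measured 73.4, 83.9 and 78.9 FPKM in si1-BCLIN25 and 75.1, 76.7 and 76.4 FPKM in si2-BCLIN25, against 56.5, 60.0 and 53.2 FPKM in si-NC. It rose by 0.47 and 0.42 with no overlap (SE 0.052, limma adjusted p = 6.73e-06 and 1.73e-05). NDUFS5, an accessory subunit on the intermembrane side, measured 165, 173 and 163 FPKM in si1-BCLIN25 and 171, 173 and 167 FPKM in si2-BCLIN25, against 139, 135 and 125 FPKM in si-NC. It also rose in every siRNA library, by 0.33 and 0.36 (limma adjusted p = 2.64e-05 and 1.41e-05).

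NDUFS8, a core subunit that carries iron-sulfur clusters on the path to ubiquinone, measured 63.1, 59.5 and 64.7 FPKM in si1-BCLIN25 and 62.6, 61.0 and 58.9 FPKM in si2-BCLIN25, against 46.2, 50.1 and 47.9 FPKM in si-NC. Its log2 fold changes were 0.37 and 0.33, again without overlap (limma adjusted p = 1.13e-05 and 2.80e-05). The steepest complex I rise with si1-BCLIN25 belonged to NDUFA7, at 31.8, 34.4 and 36.2 FPKM in si1-BCLIN25 and 31.0, 31.3 and 28.5 FPKM in si2-BCLIN25, against 25.7, 22.8 and 18.3 FPKM in si-NC. Its si-NC libraries spread more widely than those of the genes above, and its log2 fold changes of 0.61 and 0.44 had the larger SE of 0.094 (limma adjusted p = 1.15e-04 and 0.00137). NDUFB4, the most abundant complex I subunit by its mean over all 9 libraries though not in si-NC, measured 179, 194 and 210.2 FPKM in si1-BCLIN25 and 190.3, 162 and 176 FPKM in si2-BCLIN25, against 177, 157 and 145 FPKM in si-NC. It rose in si1-BCLIN25 (log2 fold change 0.29, limma adjusted p = 0.00616), while its si2-BCLIN25 libraries overlapped si-NC (0.15, limma adjusted p = 0.116).

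The 14 complex I subunits called in neither group were NDUFA3, NDUFA6, NDUFA9, NDUFA11, NDUFB2, NDUFB6, NDUFB8, NDUFB9, NDUFC2-KCTD14, NDUFS1, NDUFS4, NDUFS6, NDUFV2 and NDUFV3. NDUFS6, a small subunit of the peripheral arm, had the narrowest relative range of these 14, with 165, 167 and 171 FPKM in si1-BCLIN25 and 171, 171 and 171 FPKM in si2-BCLIN25, against 163, 179 and 170.1 FPKM in si-NC. NDUFS1, the largest core subunit, had log2 fold changes of -0.06 and -0.09, so the core subunits did not all lie on one side of 0. NDUFC2, an accessory subunit of the membrane arm, was the 1 that fell. It measured 32.0, 27.2 and 28.6 FPKM in si1-BCLIN25 and 30.8, 34.3 and 33.4 FPKM in si2-BCLIN25, against 35.1, 37.9 and 33.5 FPKM in si-NC. The si1-BCLIN25 libraries lay below si-NC (log2 fold change -0.27, limma adjusted p = 0.00253) and the si2-BCLIN25 libraries overlapped it (-0.11, limma adjusted p = 0.15). The readthrough NDUFC2-KCTD14 was at 11.5 ± 0.54 FPKM in si1-BCLIN25, 12.2 ± 0.51 FPKM in si2-BCLIN25 and 11.7 ± 1.4 FPKM in si-NC (SD, n = 3 each).

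Complex II oxidises succinate in the citric acid cycle and passes the electrons to ubiquinone. Its 4 genes did not move together. SDHA, the flavoprotein that oxidises succinate, measured 61.5, 59.9 and 63.2 FPKM in si1-BCLIN25 and 60.2, 57.4 and 61.1 FPKM in si2-BCLIN25, against 71.8, 70.2 and 70.3 FPKM in si-NC. It fell without overlap in both groups, with log2 fold changes at -0.20 and -0.24 (each with SE 0.036, limma adjusted p = 4.50e-04 and 8.68e-05). SDHB, the iron-sulfur subunit beside it and the most abundant of the 4 in the siRNA libraries, measured 68.4, 67.6 and 71.0 FPKM in si1-BCLIN25 and 71.2, 74.5 and 70.5 FPKM in si2-BCLIN25, against 63.3, 65.4 and 68.6 FPKM in si-NC. It rose in si2-BCLIN25 (0.13, limma adjusted p = 0.0127) and overlapped si-NC in si1-BCLIN25 (0.07, limma adjusted p = 0.15).

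The membrane anchors SDHC and SDHD hold haem and the ubiquinone site. SDHD measured 51.4, 46.4 and 50.1 FPKM in si1-BCLIN25 and 52.0, 53.6 and 50.5 FPKM in si2-BCLIN25, against 47.2, 45.6 and 49.2 FPKM in si-NC. It too rose in si2-BCLIN25 (0.13, limma adjusted p = 0.022), and in si1-BCLIN25 its log2 fold change was 0.06 (limma adjusted p = 0.298). Both si2-BCLIN25 calls were lost with each library centred on its median, where the adjusted p was 0.101 for SDHB and 0.129 for SDHD (limma). They also rested on single libraries: SDHB was lost without si2-BCLIN25 replicate 2 (limma adjusted p = 0.0628), and SDHD without si2-BCLIN25 replicate 1, si2-BCLIN25 replicate 2 or si-NC replicate 2 (limma adjusted p = 0.0541, 0.0857 and 0.0781). SDHC measured 35.0, 40.3 and 40.5 FPKM in si1-BCLIN25 and 37.3, 35.5 and 36.4 FPKM in si2-BCLIN25, against 39.2, 36.4 and 36.4 FPKM in si-NC, and its groups overlapped (0.05 and -0.03, limma adjusted p = 0.492 and 0.605).

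Complex III passes electrons from ubiquinol to cytochrome c through cytochrome b, cytochrome c1 (CYC1) and the Rieske iron-sulfur protein (UQCRFS1). Of its 10 genes, 7 rose with si1-BCLIN25 and 8 with si2-BCLIN25, and 1 fell in each, with medians of 0.18 and 0.17. The shares that rose were 70% and 80%, against 38.4% and 38.6% of all genes. UQCR10, UQCR11, UQCRB, UQCRC1, UQCRC2 and UQCRH rose in both groups. UQCRH, the hinge protein and the most abundant gene of complex III, measured 327, 352 and 344 FPKM in si1-BCLIN25 and 303, 318 and 327 FPKM in si2-BCLIN25, against 299, 268 and 237 FPKM in si-NC. All siRNA libraries were above all si-NC libraries, by a narrow margin for si2-BCLIN25, and the log2 fold changes were 0.35 and 0.24 (limma adjusted p = 6.81e-04 and 0.00807). UQCRC2, one of the large core proteins on the matrix side, measured 51.5, 49.8 and 52.5 FPKM in si1-BCLIN25 and 53.9, 53.6 and 52.2 FPKM in si2-BCLIN25, against 45.0, 45.6 and 49.0 FPKM in si-NC. It rose by 0.14 and 0.19 with no overlap (limma adjusted p = 0.0091 and 0.00113), and the si1-BCLIN25 call was lost with median centring (limma adjusted p = 0.0623).

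Among the small subunits, UQCR11 measured 55.1, 58.7 and 56.0 FPKM in si1-BCLIN25 and 56.5, 51.7 and 52.7 FPKM in si2-BCLIN25, against 45.4, 46.6 and 39.6 FPKM in si-NC. It rose by 0.36 and 0.29 (limma adjusted p = 1.37e-04 and 8.71e-04). UQCR10 measured 43.6, 48.7 and 46.4 FPKM in si1-BCLIN25 and 42.6, 40.0 and 41.1 FPKM in si2-BCLIN25, against 39.3, 37.4 and 32.6 FPKM in si-NC. Both genes were higher in every siRNA library than in any si-NC library, and UQCR10 rose by 0.34 and 0.18 (limma adjusted p = 4.75e-04 and 0.0256). The si2-BCLIN25 call of UQCR10 was lost under 5 alternatives, median centring among them, and without si-NC replicate 3 its adjusted p was 0.111 (limma).

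UQCRFS1 went the other way. It measured 54.6, 56.6 and 62.4 FPKM in si1-BCLIN25 and 56.0, 54.7 and 54.2 FPKM in si2-BCLIN25, against 60.3, 66.5 and 65.7 FPKM in si-NC. It fell in both groups (-0.15 and -0.22, SE 0.052, limma adjusted p = 0.0258 and 0.00274), although si1-BCLIN25 replicate 3 lay inside the si-NC range. CYC1, its partner in the electron path, was at 102 ± 0.9 FPKM in si1-BCLIN25 and 92.6 ± 1.3 FPKM in si2-BCLIN25, against 91.2 ± 6.2 FPKM in si-NC (SD, n = 3 each). CYC1 rose in si1-BCLIN25 (0.16, limma adjusted p = 0.00724) and was not called in si2-BCLIN25 (0.02, limma adjusted p = 0.667). UQCRQ, a small subunit, rose in si2-BCLIN25 alone (0.03 and 0.11, limma adjusted p = 0.626 and 0.0433). UQCRHL, a near-identical intronless copy of UQCRH, was at 1.35, 1.81 and 1.96 FPKM in si1-BCLIN25 and 2.67, 1.96 and 2.12 FPKM in si2-BCLIN25, against 1.66, 1.43 and 0.300 FPKM in si-NC. It held under 1% of the summed FPKM of the pair in every library, and since the copies share reads its call in si2-BCLIN25 (limma adjusted p = 0.0153) is uncertain. It was also lost under quantile normalization and without si2-BCLIN25 replicate 1 (limma adjusted p = 0.0646 and 0.0601).

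Complex IV reduces oxygen to water at a core encoded in mitochondrial DNA, which the nuclear subunits surround. Of 11 nuclear subunits tested, 8 rose with si1-BCLIN25 and 5 with si2-BCLIN25, and 1 fell in each. The share that rose was 72.7% with si1-BCLIN25, against 38.4% of all genes. With si2-BCLIN25 it was 45.5%, nearer to the 38.6% of all genes. The median log2 fold changes of 0.32 and 0.13 differed more between the siRNA groups than those of the other complexes. COX7B, a small subunit needed for assembly, measured 273, 259 and 278 FPKM in si1-BCLIN25 and 246, 245 and 248 FPKM in si2-BCLIN25, against 197, 182 and 168 FPKM in si-NC. The groups were far apart, with log2 fold changes at 0.57 and 0.44 (each with SE 0.051, limma adjusted p = 9.28e-07 and 1.03e-05). COX6C measured 326, 324 and 378 FPKM in si1-BCLIN25 and 324, 319 and 304 FPKM in si2-BCLIN25, against 267, 244 and 231 FPKM in si-NC. COX7C, the most abundant gene of complex IV by the same mean though not in si-NC, measured 355, 390.3 and 385 FPKM in si1-BCLIN25 and 345, 346 and 371 FPKM in si2-BCLIN25, against 312, 297 and 263 FPKM in si-NC. Neither gene overlapped between siRNA and si-NC libraries: COX6C rose by 0.47 and 0.35 (limma adjusted p = 4.12e-05 and 4.21e-04), and COX7C by 0.38 and 0.29 (limma adjusted p = 1.64e-04 and 0.00128).

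Several complex IV subunits have isoforms that mark muscle or testis. COX6A1, the widely expressed isoform of its pair, measured 358, 375 and 377 FPKM in si1-BCLIN25 and 346, 326 and 333 FPKM in si2-BCLIN25, against 307, 310.4 and 271 FPKM in si-NC. It rose by 0.32 and 0.18 without overlap (limma adjusted p = 1.40e-04 and 0.00889), and the si2-BCLIN25 call was lost under quantile normalization and median centring (limma adjusted p = 0.0694 and 0.0565). COX6B1 measured 205, 222 and 233 FPKM in si1-BCLIN25 and 194, 179.6 and 195 FPKM in si2-BCLIN25, against 182, 179 and 165 FPKM in si-NC, and rose in si1-BCLIN25 (0.32, limma adjusted p = 2.11e-04) with overlap in si2-BCLIN25 (0.11, limma adjusted p = 0.0885). COX6B2, its testis isoform, was detected in every library, at 5.75, 6.63 and 5.95 FPKM in si1-BCLIN25 and 6.58, 6.12 and 5.37 FPKM in si2-BCLIN25, against 4.31, 4.37 and 3.55 FPKM in si-NC. It rose by 0.49 and 0.47 (limma adjusted p = 2.38e-04 and 3.31e-04). COX6B2 made up 2.49% to 2.90% of the pair's FPKM in si1-BCLIN25 and 2.68% to 3.30% in si2-BCLIN25, against 2.10% to 2.38% in si-NC. Testis germ cell markers were at or near 0 in the same libraries.

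COX8A, the widely expressed partner of COX8C, measured 196, 213 and 224 FPKM in si1-BCLIN25 and 176, 176 and 171 FPKM in si2-BCLIN25, against 187, 184 and 165 FPKM in si-NC. It rose in si1-BCLIN25 (0.24, limma adjusted p = 0.00223) and overlapped si-NC in si2-BCLIN25 (-0.03, limma adjusted p = 0.632). COX5A was likewise called in si1-BCLIN25 alone (0.26 and 0.05). COX7A2, the widely expressed isoform beside the muscle isoform COX7A1, measured 121, 106 and 109 FPKM in si1-BCLIN25 and 124, 135 and 121 FPKM in si2-BCLIN25, against 109.6, 119.8 and 117 FPKM in si-NC. The si2-BCLIN25 libraries lay just above si-NC, but the gene was called in neither group, with log2 fold changes of -0.05 and 0.13 (limma adjusted p = 0.491 and 0.0556).

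COX7A2L, the related protein that joins complex III to complex IV in supercomplexes, was the complex IV gene that fell. It measured 50.2, 46.6 and 51.1 FPKM in si1-BCLIN25 and 51.7, 49.5 and 49.5 FPKM in si2-BCLIN25, against 72.7, 65.2 and 66.4 FPKM in si-NC. Every siRNA library was below every si-NC library, with log2 fold changes at -0.46 and -0.43 (each with SE 0.049, limma adjusted p = 4.36e-06 and 7.83e-06). It was thus 29.3% to 31.9% of the summed FPKM of COX7A2L and COX7A2 in si1-BCLIN25 and 26.9% to 29.4% in si2-BCLIN25, against 35.2% to 39.9% in si-NC.

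Complex V holds a catalytic F1 head (ATP5F1A to ATP5F1E) on a membrane part with the c ring. Of 14 genes tested, 8 rose with si1-BCLIN25 and 5 with si2-BCLIN25, 1 fell in each, and the median was 0.13 in both. The share that rose with si1-BCLIN25 was 57.1%, against 38.4% of all genes. With si2-BCLIN25 it was 35.7%, below the 38.6% of all genes. The 3 genes ATP5MC1, ATP5MC2 and ATP5MC3 encode the same mature c subunit behind different import sequences, and all 3 rose in both groups. ATP5MC2 measured 73.8, 79.9 and 71.3 FPKM in si1-BCLIN25 and 69.4, 67.5 and 67.7 FPKM in si2-BCLIN25, against 46.9, 41.1 and 41.8 FPKM in si-NC. The siRNA and si-NC libraries were widely separated, and its rises of 0.78 and 0.65 had the smallest p of all 76 subunits (SE 0.053, limma adjusted p = 7.61e-08 and 4.56e-07). ATP5MC1 measured 102, 112 and 106 FPKM in si1-BCLIN25 and 102, 109.6 and 104 FPKM in si2-BCLIN25, against 84.8, 88.8 and 84.4 FPKM in si-NC. ATP5MC3 measured 43.5, 44.5 and 42.1 FPKM in si1-BCLIN25 and 43.2, 43.7 and 41.0 FPKM in si2-BCLIN25, against 32.8, 34.3 and 33.4 FPKM in si-NC. Both rose without overlap, ATP5MC1 by 0.31 and 0.28 (limma adjusted p = 5.21e-05 and 1.02e-04) and ATP5MC3 by 0.36 and 0.34 (limma adjusted p = 4.57e-06 and 8.71e-06).

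Summed over the 3 genes, the c subunit reached 225 ± 9.7 FPKM in si1-BCLIN25 and 216 ± 4.4 FPKM in si2-BCLIN25, against 163 ± 2.8 FPKM in si-NC (SD, n = 3 each), or 1.38 and 1.33 times si-NC. ATP5MC2 was 40.1% to 42.0% of the FPKM of ATP5MC2 and ATP5MC1 in si1-BCLIN25 and 38.1% to 40.6% in si2-BCLIN25, against 31.6% to 35.6% in si-NC. Of the 5 genes of the F1 head, 3 rose with si1-BCLIN25 and 2 with si2-BCLIN25, and 1 fell in each. ATP5F1A and ATP5F1B, the ring that binds nucleotides, had log2 fold changes of 0.17 and 0.14 in si1-BCLIN25 and 0.08 and 0.13 in si2-BCLIN25, where ATP5F1A was not called. ATP5F1C, the central shaft, was at 101 ± 1.4 FPKM in si1-BCLIN25 and 109 ± 1.2 FPKM in si2-BCLIN25, against 92.3 ± 2.6 FPKM in si-NC (SD, n = 3 each), and rose in both (limma adjusted p = 0.00566 and 5.89e-05).

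ATP5F1E, the small epsilon subunit at the foot of that shaft, fell. It measured 242, 241 and 264 FPKM in si1-BCLIN25 and 229.6, 221 and 219 FPKM in si2-BCLIN25, against 309, 305 and 300.4 FPKM in si-NC. The 3 si-NC libraries lay close together above all siRNA libraries, and the log2 fold changes were -0.29 and -0.45 (SE 0.041, limma adjusted p = 5.21e-05 and 1.22e-06). Of the other membrane subunits, ATP5ME and ATP5MJ rose in si1-BCLIN25 and 0 of the 6 tested were called with si2-BCLIN25 (limma, 1 at an unadjusted p under 0.05). ATP5MF, the most abundant gene of complex V over all 9 libraries, below ATP5F1E in si-NC, measured 249, 270.2 and 277 FPKM in si1-BCLIN25 and 253, 263 and 249.6 FPKM in si2-BCLIN25, against 296, 273 and 246 FPKM in si-NC, and its groups overlapped. With the length and GC trend removed, ATP5MF passed as lower in both groups (log2 fold changes -0.18 and -0.18, limma adjusted p = 0.00316 and 0.00404). ATP5F1D, ATP5MG, ATP5MK and the readthrough ATP5MF-PTCD1, at 1.10 ± 0.93 FPKM in si1-BCLIN25, 1.47 ± 1.5 FPKM in si2-BCLIN25 and 1.82 ± 1.2 FPKM in si-NC (SD, n = 3 each), were called in neither.

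**Figure D2:**
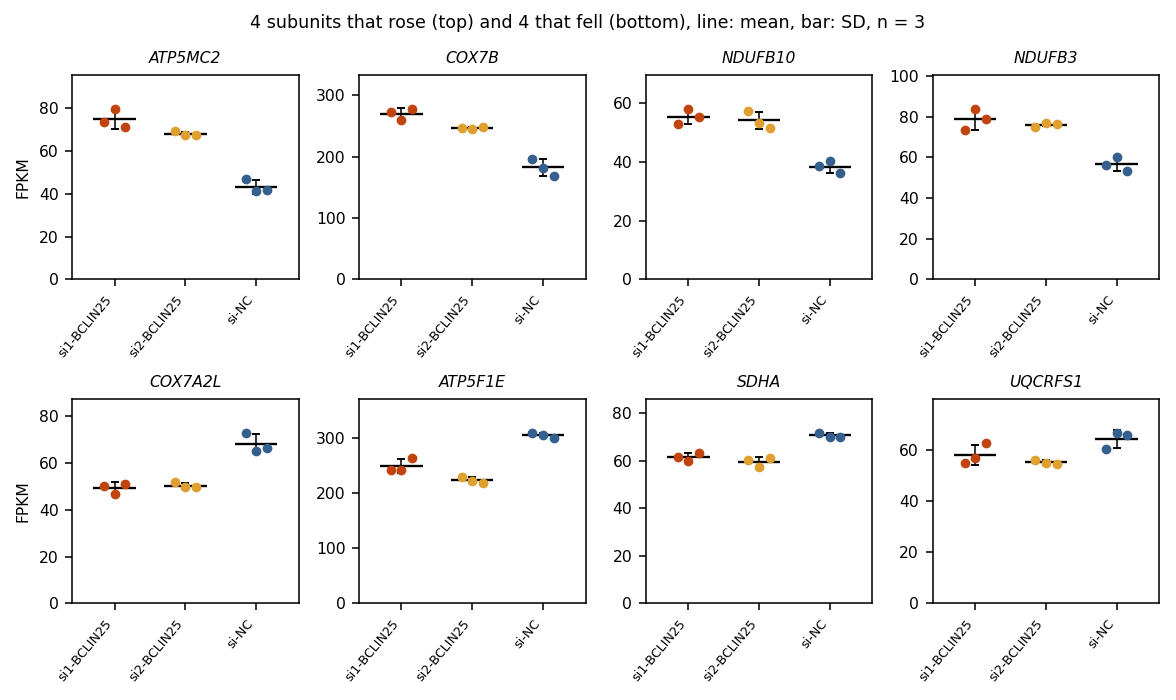
FPKM of 8 subunits in each library of the 3 groups, with the mean as a line and the SD as a bar (n = 3), each panel starting at 0. ATP5MC2, COX7B, NDUFB10 and NDUFB3 were higher in all 6 siRNA libraries than in any si-NC library; COX7A2L, ATP5F1E and SDHA were lower in all 6, and UQCRFS1 in all but si1-BCLIN25 replicate 3.

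The FPKM of the genes of each complex were also summed. All 79 genes together reached 7390.0 ± 213 FPKM in si1-BCLIN25 and 6984 ± 72.7 FPKM in si2-BCLIN25, against 6449 ± 307 FPKM in si-NC (SD, n = 3 each). These are ratios of 1.15 and 1.08 to si-NC, or 1.10 and 1.06 once each library is scaled to the same total. Per complex, that scaling gave 1.19 and 1.10 for complex IV, 1.13 and 1.09 for complex III, 1.10 and 1.06 for complex I, 1.01 and 0.993 for complex V, and 0.949 and 0.971 for complex II. As a share of all FPKM the set made up 1.78 ± 0.035% in si1-BCLIN25 and 1.70 ± 0.013% in si2-BCLIN25, against 1.61 ± 0.054% in si-NC. Without scaling, the ratios of the summed FPKM were 1.24 in si1-BCLIN25 and 1.13 in si2-BCLIN25 for complex IV, 1.17 and 1.11 for complex III, 1.14 and 1.09 for complex I, 1.05 and 1.02 for complex V, and 0.988 and 0.995 for complex II. Complex V stayed near 1 although its c subunit genes rose. Among its most abundant genes, ATP5F1E fell in both groups, and ATP5MF was called in neither (log2 fold changes -0.03 and -0.09). The part of single genes in the sum was not tested. Complex II summed to 218 ± 5.7 FPKM in si1-BCLIN25 and 220.1 ± 1.4 FPKM in si2-BCLIN25, against 221 ± 3.5 FPKM in si-NC, a difference within the spread between libraries. As a share of all FPKM, complex II was at 0.0525 ± 0.0012% in si1-BCLIN25 and 0.0537 ± 0.0005% in si2-BCLIN25, against 0.0553 ± 0.0015% in si-NC, and on that scale every siRNA library was below every si-NC library.

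**Figure D3:**
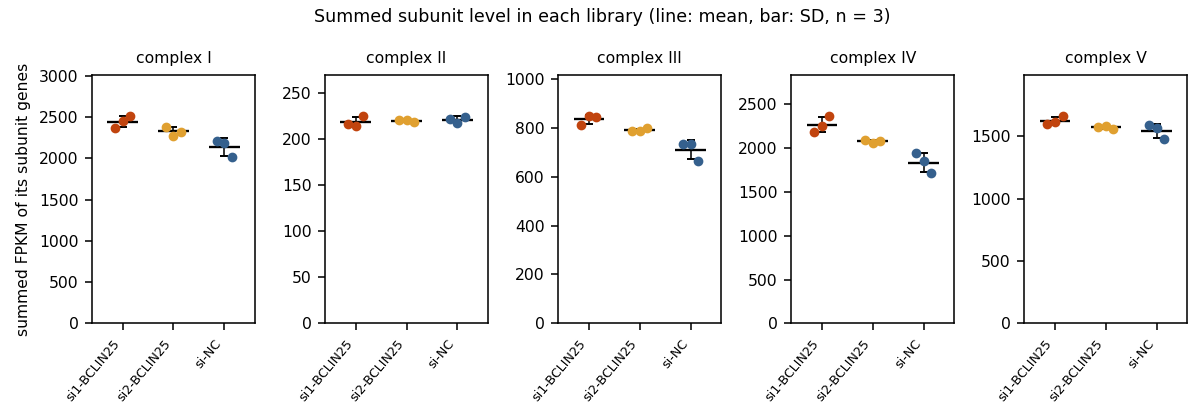
Summed FPKM of the subunit genes of each complex in each library, with the group mean as a line and the SD as a bar (n = 3), each panel starting at 0. Complex IV shows the widest gap, at 1.24 and 1.13 times si-NC, and on these unscaled sums the complex II groups overlap; si-NC replicate 3 has the lowest sum in complexes I, III, IV and V.

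The siRNA groups were also compared with each other. None of the 76 subunits was called (limma). Of all genes 0.585% were called, 0.309% as higher in si1-BCLIN25 and 0.276% as lower. An unadjusted p under 0.05 (limma) was reached by 21 of the 76 subunits, and by 2187 of all 12317 genes (17.8%). The libraries did not overlap for 23 of the 76 subunits as higher in si1-BCLIN25, and for 3 of the 76 as lower. Of all 12317 genes this held for 1447 (11.7%) and 1740 (14.1%). The median log2 difference of si1-BCLIN25 from si2-BCLIN25 was 0.06 over the subunits and -0.0046 over all genes. COX8A came nearest, with a log2 difference of 0.27 (limma adjusted p = 0.0514), and NDUFS3, NDUFA2, COX6B1, NDUFA12 and ATP5F1E followed (log2 differences of 0.24, 0.24, 0.21, 0.20 and 0.16, limma adjusted p = 0.0815 to 0.0964). A fit to the 6 siRNA libraries alone called 6 subunits, all higher in si1-BCLIN25. For the others, a call against si-NC in 1 siRNA group and not in the other does not show a difference between them, and for these 6 the difference rests on the choice of fit.

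Of the 4 subunits that fell in both groups, COX7A2L and ATP5F1E lie among neighbours that were also clearly lower. For each subunit, the median log2 fold change of up to 50 tested genes around it on its chromosome was taken, and over the 76 subunits this ran from -0.31 to 0.22 in si1-BCLIN25 and from -0.29 to 0.24 in si2-BCLIN25, with medians of 0.07 and 0.06. It was under -0.1 for 3 subunits in each comparison: COX7A2L and COX5B on chromosome 2 and ATP5F1E on chromosome 20. The neighbours of COX7A2L stood at -0.21 in both groups, and those of ATP5F1E at -0.22 and -0.24, with 78% and 82% of them below 0. COX7A2L and ATP5F1E themselves were lower than these medians (-0.46 and -0.43, and -0.29 and -0.45). COX5B, a subunit of complex IV on the matrix side, was called in neither group, at 108, 112 and 115 FPKM in si1-BCLIN25 and 106, 104 and 105 FPKM in si2-BCLIN25, against 117, 108 and 107 FPKM in si-NC, among neighbours at -0.31 and -0.29. The neighbours of SDHA, 27 on chromosome 5, stood at -0.07 and -0.09, those of UQCRFS1 on chromosome 19 at -0.01 and -0.04, and those of ATP5MC2 on chromosome 12 at 0.13 and 0.14. With the genes of chromosomes 2 and 20 left out, 42 subunits were higher and 3 lower with si1-BCLIN25, and 32 were higher and 2 lower with si2-BCLIN25. The part of these neighbourhoods in the changes of COX7A2L and ATP5F1E was not tested.

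**Figure D4:**
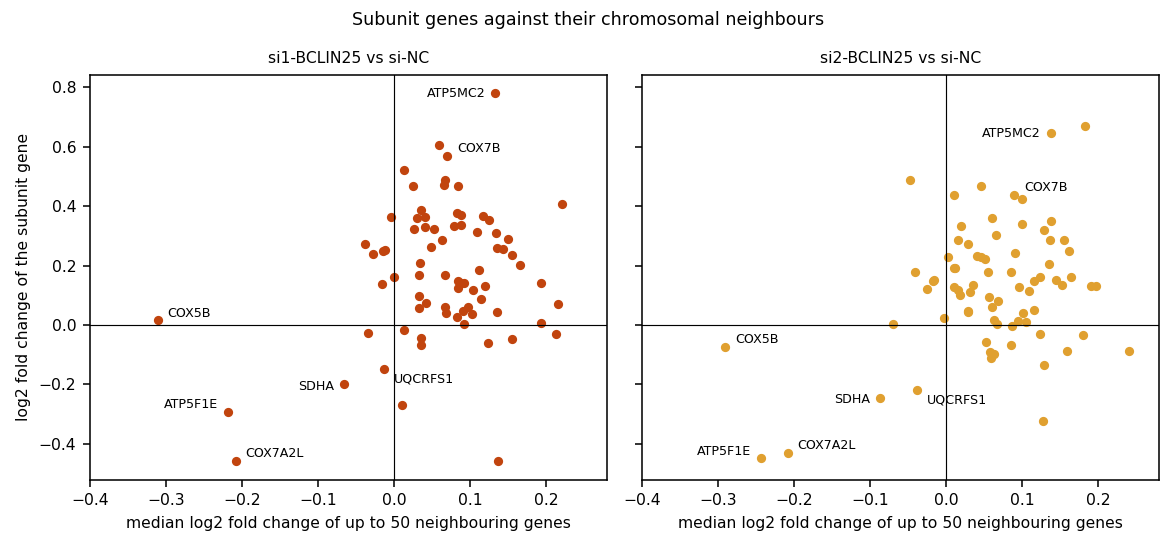
Log2 fold change of each tested subunit against si-NC (vertical) and the median log2 fold change of up to 50 neighbouring tested genes on its chromosome (horizontal), for si1-BCLIN25 on the left and si2-BCLIN25 on the right. COX7A2L and ATP5F1E lie at the lower left, COX5B lies far left at about 0, and ATP5MC2 lies at 0.78 and 0.65 with neighbours at 0.13 and 0.14.

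Promoters of the subunit genes were searched for the motifs of the regulators known for this pathway, NRF1 (its central letters, CGCANGCG) and the ETS factors such as GABPA (CCGGAAG), on both strands of the 250 bases before the start of transcription in RefSeq (GRCh38.p14). Of the 79 genes 62 had a promoter in that table. NRF1 letters occurred in 21 of the 62 (33.9%), against 17.1% of the promoters of all genes tested and 9.17% of all promoters in the table. ETS letters occurred in 15 (24.2%), against 16.5% and 8.82%, and either motif in 32 (51.6%), against 30.5% and 16.5%. Both motifs occurred in 4 of the 62. Among the 24 promoters of subunits that rose in both siRNA groups, 5 held NRF1 letters (20.8%) and 6 held ETS letters (25%), and among the 37 of the other subunits tested 15 (40.5%) and 9 (24.3%) did. The promoters of the 4 genes that fell in both groups and of 2 of the steepest rises are shown, since these carry the opposite directions found within the pathway. They lie at chr5:218070-218319 on the plus strand (SDHA, gene 6389), chr19:29213152-29213401 on the minus strand (UQCRFS1, gene 7386), chr2:42361218-42361467 on the minus strand (COX7A2L, gene 9167), chr20:59032336-59032585 on the minus strand (ATP5F1E, gene 514), chr12:53676084-53676333 on the minus strand (ATP5MC2, gene 517) and chrX:77899218-77899467 on the plus strand (COX7B, gene 1349). Each is written 5′ to 3′ on the gene's strand, and capitals mark NRF1 letters on either strand.
SDHA: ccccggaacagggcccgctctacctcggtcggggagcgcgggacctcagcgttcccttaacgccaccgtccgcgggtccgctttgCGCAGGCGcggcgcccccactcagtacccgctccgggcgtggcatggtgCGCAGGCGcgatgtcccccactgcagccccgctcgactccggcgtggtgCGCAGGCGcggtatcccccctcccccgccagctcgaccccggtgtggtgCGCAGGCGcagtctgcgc
UQCRFS1: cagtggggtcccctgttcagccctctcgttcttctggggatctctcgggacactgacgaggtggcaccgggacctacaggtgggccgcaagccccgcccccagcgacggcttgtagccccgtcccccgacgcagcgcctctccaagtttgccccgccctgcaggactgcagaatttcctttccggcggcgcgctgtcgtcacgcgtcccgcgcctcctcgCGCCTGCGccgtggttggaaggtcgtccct
COX7A2L: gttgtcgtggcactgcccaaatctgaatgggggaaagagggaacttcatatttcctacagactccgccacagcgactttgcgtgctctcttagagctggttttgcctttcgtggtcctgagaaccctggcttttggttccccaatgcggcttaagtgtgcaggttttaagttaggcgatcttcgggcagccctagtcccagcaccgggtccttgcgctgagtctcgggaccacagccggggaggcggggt
ATP5F1E: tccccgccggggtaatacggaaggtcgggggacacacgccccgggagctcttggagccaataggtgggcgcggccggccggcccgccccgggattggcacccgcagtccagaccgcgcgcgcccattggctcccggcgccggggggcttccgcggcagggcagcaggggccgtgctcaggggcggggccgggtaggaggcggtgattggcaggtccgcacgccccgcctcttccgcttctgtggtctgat
ATP5MC2: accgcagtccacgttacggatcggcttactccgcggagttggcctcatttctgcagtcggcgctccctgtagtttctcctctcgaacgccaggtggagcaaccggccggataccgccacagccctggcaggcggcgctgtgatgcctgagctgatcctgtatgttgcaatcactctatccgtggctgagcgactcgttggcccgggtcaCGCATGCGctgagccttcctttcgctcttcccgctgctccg
COX7B: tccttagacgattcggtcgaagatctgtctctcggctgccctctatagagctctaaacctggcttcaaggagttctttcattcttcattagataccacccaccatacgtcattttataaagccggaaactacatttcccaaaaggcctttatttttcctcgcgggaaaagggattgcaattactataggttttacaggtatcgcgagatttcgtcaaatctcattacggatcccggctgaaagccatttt

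SDHA held 4 NRF1 matches in a repeated arrangement, starting 165, 116, 67 and 18 bases before the start of transcription. UQCRFS1 held 1 at 30 bases and ATP5MC2 held 1 at 41 bases, so matches stood before genes that fell and before 1 that rose. COX7A2L, ATP5F1E and COX7B held neither motif in this window. A match is a run of letters and not a measured binding site, and no binding was measured here.

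The symbol rule leaves out 6 further subunits that were tested, and also the electron carrier CYCS and the inhibitor ATP5IF1. Of these 8, 5 rose with si1-BCLIN25 and 1 fell, and 4 rose with si2-BCLIN25 and 0 fell (limma, 0 lower also at an unadjusted p under 0.05), with medians of 0.18 and 0.09. ATP5PD, a peripheral stalk subunit of complex V, measured 219, 237 and 241 FPKM in si1-BCLIN25 and 230.3, 225 and 231 FPKM in si2-BCLIN25, against 156, 169 and 151 FPKM in si-NC. It rose by 0.55 and 0.53 without overlap (limma adjusted p = 7.04e-07 and 1.06e-06). ATP5IF1, which keeps complex V from running in reverse, rose by 0.43 and 0.34 (limma adjusted p = 2.15e-05 and 1.52e-04), also above si-NC in every siRNA library (84.5, 94.5 and 89.2 and 85.2, 83.0 and 83.4, against 67.5, 70.2 and 60.2 FPKM). CYCS, cytochrome c, the 1 that fell, had log2 fold changes of -0.10 and -0.05 and fell in si1-BCLIN25 (limma adjusted p = 0.0463 and 0.325). COX4I1, a nuclear subunit of complex IV, was at 209.5 ± 5.3 FPKM in si1-BCLIN25 and 183 ± 7.3 FPKM in si2-BCLIN25, against 182 ± 20 FPKM in si-NC (SD, n = 3 each), and its lung isoform COX4I2 was at most 0.0900 FPKM. NDUFA4, listed by RefSeq as COXFA4 and now counted with complex IV, measured 51.5, 52.5 and 54.9 FPKM in si1-BCLIN25 and 50.9, 49.1 and 49.0 FPKM in si2-BCLIN25, against 40.9, 39.4 and 39.6 FPKM in si-NC, and rose by 0.40 and 0.31 (limma adjusted p = 1.35e-06 and 1.42e-05). Its paralog NDUFA4L2 was at most 0.600 FPKM in any library.

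The assembly factors were more evenly split in direction than the subunits. Of 51 tested, 11 rose with si1-BCLIN25 and 9 fell, and 13 rose with si2-BCLIN25 and 11 fell, with medians of 0.02 in both. For this and every other list outside the set, the background is the share of all genes. With si1-BCLIN25 38.4% of all genes rose and 24.6% fell, and with si2-BCLIN25 38.6% rose and 24.4% fell. LRPPRC, which stabilises mitochondrial mRNAs, measured 47.4, 44.3 and 48.9 FPKM in si1-BCLIN25 and 50.3, 49.4 and 50.1 FPKM in si2-BCLIN25, against 68.3, 65.9 and 70.2 FPKM in si-NC. It fell by 0.53 and 0.44 on the log2 scale without overlap (limma adjusted p = 2.69e-07 and 1.63e-06), on chromosome 2 among neighbours at -0.19 and -0.20. NDUFAF1, a complex I assembly factor, measured 10.0, 11.6 and 11.2 FPKM in si1-BCLIN25 and 11.8, 11.4 and 11.8 FPKM in si2-BCLIN25, against 7.53, 7.06 and 7.63 FPKM in si-NC, and rose by 0.50 and 0.59 (limma adjusted p = 6.41e-06 and 1.44e-06). TIMMDC1, another complex I assembly factor, measured 36.9, 35.5 and 37.7 FPKM in si1-BCLIN25 and 36.8, 34.8 and 37.5 FPKM in si2-BCLIN25, against 26.1, 28.6 and 27.5 FPKM in si-NC, and rose by 0.41 and 0.40 on the log2 scale (limma adjusted p = 5.75e-06 and 7.84e-06). PET117, a complex IV assembly factor on chromosome 20, had log2 fold changes of -0.54 and -0.44 among neighbours at -0.27 and -0.26.

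The regulators were mixed as well: of 12, 2 rose with si1-BCLIN25 and 3 with si2-BCLIN25, and 4 fell in each, with medians of -0.08 and -0.02. PPARGC1A, a coactivator that drives mitochondrial biogenesis, had 1.67, 1.63 and 1.75 FPKM in si1-BCLIN25 and 1.38, 1.51 and 1.74 FPKM in si2-BCLIN25, against 0.350, 0.210 and 0.250 FPKM in si-NC. It rose without overlap at a low level, by 1.08 and 1.00 on a scale that understates changes of low genes (limma adjusted p = 1.68e-07 and 3.54e-07). Its relative PPARGC1B rose by 0.39 and 0.40, at 1.48 ± 0.12 FPKM in si1-BCLIN25 and 1.497 ± 0.067 FPKM in si2-BCLIN25, against 0.897 ± 0.0058 FPKM in si-NC (SD, n = 3 each). In si-NC both genes lay under the 1 FPKM minimum, so they were tested only because the siRNA libraries reached it. Their calls are therefore no separate support for a rise. TFB2M, which starts transcription of mitochondrial DNA, measured 18.4, 19.3 and 18.7 FPKM in si1-BCLIN25 and 18.7, 17.7 and 18.0 FPKM in si2-BCLIN25, against 24.1, 24.6 and 23.8 FPKM in si-NC. TFAM, which packages that DNA, measured 30, 28.6 and 32.2 FPKM in si1-BCLIN25 and 29.7, 31.2 and 27.5 FPKM in si2-BCLIN25, against 38.1, 39.5 and 42.6 FPKM in si-NC. Both fell without overlap, TFB2M with log2 fold changes of -0.35 and -0.39 (limma adjusted p = 7.01e-06 and 2.38e-06) and TFAM with -0.39 and -0.43 (limma adjusted p = 8.16e-05 and 3.80e-05). PPRC1 and GABPB1 fell in both groups, while GABPA (-0.06 and -0.01) and NRF1 itself (-0.09 and -0.12) were called in neither (limma adjusted p of NRF1 0.155 and 0.0578).

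**Figure D5:**
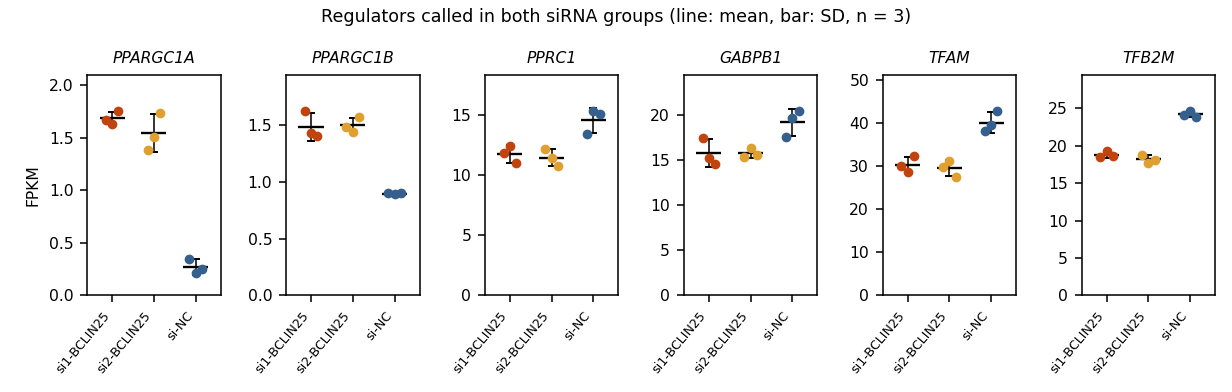
FPKM of the 6 regulators called in both siRNA groups, in each library, with the mean as a line and the SD as a bar (n = 3), each panel starting at 0. PPARGC1A and PPARGC1B were higher in all siRNA libraries than in any si-NC library, while PPRC1, GABPB1, TFAM and TFB2M were lower in all of them.

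Of the 16 genes of pyruvate dehydrogenase and the citric acid cycle, which supply the electrons, 6 rose with si1-BCLIN25 and 6 fell, and 3 rose with si2-BCLIN25 and 8 fell, with medians of -0.08 and -0.11. SUCLG2, a subunit of succinyl-CoA ligase, measured 19.4, 19.1 and 20.1 FPKM in si1-BCLIN25 and 19.3, 18.9 and 20.4 FPKM in si2-BCLIN25, against 24.9, 22.7 and 23.7 FPKM in si-NC, and fell without overlap (-0.27 and -0.27, limma adjusted p = 2.39e-04 and 2.24e-04). IDH3A, a subunit of isocitrate dehydrogenase, fell by 0.25 and 0.10 on the log2 scale (limma adjusted p = 1.83e-04 and 0.042). IDH3B of the same enzyme, on chromosome 20, fell too (-0.28 and -0.24, limma adjusted p = 1.35e-04 and 4.10e-04), among neighbours at -0.21 and -0.22. MDH2, which makes oxaloacetate, rose by 0.23 and 0.25 (limma adjusted p = 5.16e-04 and 2.77e-04). SDHA, which belongs to the cycle as well as to complex II, thus fell beside genes of the cycle that fell and others that rose.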

How the data were processed

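RNA from 9 libraries of human cells was sequenced on the BGI500 platform, per the labels' protocols. The deposited values are FPKM per gene, per the file headers. The tools used, per the submitters' processing notes, were RSEM 1.2.12, Bowtie2 2.2.5, DESeq2 1.4.5 and HISAT2 2.0.4, whose roles those notes leave out. Build, annotation and strandedness: not given in the sources used here. Sequencing depth is unknown, so no counting interval is given. FPKM summed to 394081 to 419025 per library, and 11812 to 12139 genes reached 1 FPKM.

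Of 18064 rows, 17748 matched a RefSeq symbol by Entrez identifier. RefSeq lists 183 pseudogenes whose symbols follow the same patterns, and 0 of them had a row. Values were analysed as log2(FPKM + 1), in genes reaching 1 FPKM in 3 or more libraries, with the limma package, version 3.58.1 (R 4.3.3, eBayes trend). A single fit of the group means of all 9 libraries gave the comparisons si1-BCLIN25 against si-NC, si2-BCLIN25 against si-NC and si1-BCLIN25 against si2-BCLIN25. Benjamini-Hochberg adjustment ran over all genes in the fit, calls were made at 0.05 without a fold minimum, and every adjusted p is from such a fit. The model was tested on simulated data.

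The subunits and gene lists were chosen with earlier results of these data known, so counts are given as descriptions beside those of all genes, with no test of a list. Named in each complex were up to 4 subunits of smallest p against si-NC, the most abundant one and known isoform pairs, and in each other list the 2 genes of smallest p in each comparison with si-NC. Other genes, NDUFA7, NDUFS1, NDUFS6, NDUFC2, CYC1, UQCRFS1, COX5A, COX5B, ATP5F1A to ATP5F1D, CYCS, PET117 and TFAM among them, were chosen after their values were seen. Neighbours were up to 25 tested genes on each side in RefSeq order. Of the subunits, 1 is counted but not reported here by name. The NRF1 motif was shortened to its central letters after a longer form had been searched. Alternatives were quantile normalization, median centring, limma without trend, a pseudocount of 0.1, a minimum of 5 FPKM and no filter, only the 2 groups compared, a replicate block, genes of chromosomes 2 and 20 left out, removal of length and GC trends, rescaled FPKM totals and each library left out.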

Additional observations from a re-analysis of the deposited data

How the results depend on the processing

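Both comparisons with si-NC kept a surplus of higher over lower subunits in every fit tried. The calls over all genes also leaned higher as fitted (60.9% and 61.3% of calls) and with length and GC trends removed (60.7% and 60.8%). With median centring, 36.8% of subunits rose with si2-BCLIN25, near the 32.5% of all genes. The subunits higher in si1-BCLIN25 numbered 39 to 46 over the settings and 43 to 49 with 1 library left out (45 as reported), and those higher in si2-BCLIN25 28 to 40 and 29 to 39 (35 as reported). The lower ones were fewer and less stable. Without chromosomes 2 and 20 they numbered 3 in si1-BCLIN25 and 2 in si2-BCLIN25, since COX7A2L and ATP5F1E lie there. In si2-BCLIN25 they numbered 8 with median centring and 8 with length and GC trends removed, and 4 to 8 with 1 library left out (8 without si-NC replicate 3); for these the cause was not tested. The ratio of summed FPKM was 1.10 with si1-BCLIN25 and 1.06 with si2-BCLIN25 on rescaled totals, and was 1.12 to 1.17 and 1.05 to 1.10 with 1 library left out.

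Between si1-BCLIN25 and si2-BCLIN25 the count of genes called, 72 as reported, was 3 with no filter, 110 at a minimum of 5 FPKM, 13 without trend, 230 from those groups alone, 6 with the replicate block and 149 with length and GC trends removed, and 2 to 126 with 1 library left out. Subunits higher numbered 1 at 5 FPKM, 6 from those groups alone, 2 with the trends removed and 0 to 3 with 1 library left out, and the median log2 difference was then 0.044 to 0.095. Same-numbered libraries did not deviate together (correlations of -0.164 to 0.139), and differently numbered ones spanned -0.193 to 0.218. No pairing by number was seen, but these correlations cannot exclude that libraries were prepared together by number. With the replicate block 45 subunits were higher and 5 lower with si1-BCLIN25, and 36 and 4 with si2-BCLIN25. Of the values of single named subunits under the alternatives, 1020 kept their direction and side of the threshold, 13 passed newly, 16 no longer passed and 5 changed sign, all of them uncalled: ATP5MF with si1-BCLIN25 (0.016 without si1-BCLIN25 replicate 1 and 0.033 without si-NC replicate 1, within -0.099 to 0.033 as libraries were left out), COX8A with si2-BCLIN25 (0.0028 without si-NC replicate 1, within -0.086 to 0.0028), and SDHC with si1-BCLIN25 at -0.0030 with median centring and -0.034 with the trends removed. Depth is unknown, so low genes such as UQCRHL carry an unknown counting error.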
